A study of Mus musculus with 24 samples.

Results

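The RNA of extracellular vesicles (EVs) was set against that of the cells that released them, in cultures of mouse CD4+ T cells under stimulation. The comparison takes 6 of the 24 small RNA libraries of the series, 3 of EVs and 3 of cells, chosen by their titles, and covers all 4408 features of the deposited count tables. Lymph nodes and spleen of C57BL/6 mice were the source of the T cells. The stimulated cultures had spent 3 days in high-glucose DMEM with anti-CD28 at 5 µg/ml and plate-bound anti-CD3 at 2 µg/ml. These antibodies engage the T cell receptor complex and the costimulatory receptor CD28. EVs were isolated from the medium of these cultures, and total RNA of EVs and of cells was extracted with Trizol. DMSO cultures, also stimulated for 3 days but with the vehicle of an inhibitor and with no antibody dose in the labels, and resting cultures, stimulated for 2 days, expanded for 1 day and rested in IL2 for 2 days, gave 3 EV and 3 cell libraries each and serve as comparison. Whether the 3 libraries of each kind stem from different mice or culture dishes is not in the labels. The main edgeR p-values rest on replicate variation pooled over all 24 libraries of the 8 groups. These include EV and cell libraries of GW4869 cultures, which were not compared here. That variation may be technical.

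EVs are membrane-bound particles, among them exosomes formed in endosomes and larger vesicles shed from the plasma membrane, and activated T cells release them at the contact with other cells and into the medium. Their RNA is mostly short: microRNAs (miRNAs), which pair with messages through their seed, fragments of tRNAs, Y RNAs, and pieces of ribosomal and other RNAs. Small nucleolar RNAs (snoRNAs) direct chemical modification of ribosomal RNA within the nucleolus, small nuclear RNAs (snRNAs) are the RNA of the spliceosome, and mitochondria make rRNAs, tRNAs and messages of their own. Activation of T cells induces some miRNAs, such as miR-155 and miR-132, and lowers others, such as miR-150.

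Mature sequences are shown for some of the miRNAs that stood high or low in the EVs, or were most abundant. They are given because the seed (bases 2 to 8, in capitals) defines the messages a miRNA can pair with. Counts are per precursor and do not tell its 5p and 3p arms apart. For Mir150 and Mir3535 no mature sequence was found in the source used. The sequences are from RefSeq, build GRCm38.p6, written 5′ to 3′. The precursor of the first below was higher in EVs, and those of the next 6 were lower and are described one by one further on. Those of the last 4 were among the most abundant. The listed precursors hold 6 with the seed of miR-181a, 6 with that of miR-17 and 3 with that of miR-19a.
miR-181a-5p: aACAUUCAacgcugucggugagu
miR-5121: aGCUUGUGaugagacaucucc
miR-210-3p: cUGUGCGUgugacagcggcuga
miR-183-5p: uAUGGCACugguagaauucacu
miR-182-5p: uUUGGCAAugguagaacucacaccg
miR-96-5p: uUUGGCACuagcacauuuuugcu
miR-132-3p: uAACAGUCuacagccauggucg
miR-155-5p: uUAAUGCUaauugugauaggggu
miR-21a-5p: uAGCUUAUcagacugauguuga
miR-17-5p: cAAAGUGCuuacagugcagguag
miR-19a-3p: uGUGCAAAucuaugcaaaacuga

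The 6 libraries held between 2202869 and 2742635 counts, and the 10 most abundant features took from 42.32% to 47.15% of them. A read in a small RNA counts a second time for the gene that holds it, so 206 of the 3042 long genes carry the counts of a listed small RNA. No feature had fewer than 4 counts in any of the 24 libraries, so an RNA found on 1 side only could not appear in these tables. A count is a share of a library: the amount of RNA per vesicle or per culture was not measured, and fewer cells of a type and less RNA per cell cannot be told apart. Of the T cell and lymphocyte miRNA markers, 14 of 14 were listed, and their summed level ran between 97670 and 120900 CPM (counts per 1000000 counts, TMM scaled) in stimulated EVs, against 137200 to 204500 CPM in stimulated cells. This sum is led by Mir142 and Mir21a and depends on the scaling. With TMM 3 of the 14 were called higher and 5 lower, beside 27.7% and 25.8% of all features. Scaled by library totals 4 were higher and 0 lower, beside 41.2% and 15.6%, and neither Mir142 nor Mir21a was called. Of the markers of other cells, Mir451a (erythroid, 1 of 3) had 33.1 to 71.9 CPM in EVs, against 58.4 to 83.5 CPM in cells. Mir126a (endothelial and platelet, 1 of 1) had 78.3 to 86.0 CPM in EVs and 101 to 115 CPM in cells, and Mir200c with Mir141 (epithelial, 2 of 6) summed to 88.5 to 109 CPM in EVs and 108 to 141 CPM in cells. None of these 4 passed the test, and the myeloid, liver, muscle, stromal and neural markers are not listed, which at a floor of 4 counts in every library does not show them absent. The part of these cells in the results was not tested.

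Stimulated EVs and cells differed in the make-up of their small RNA. Mitochondrial and nucleolar RNAs were low in the EVs, Y RNAs, U2 snRNAs and a 5′ kind of tRNA fragment were high, and 123 of 254 miRNAs were lower. By the quasi-likelihood test of edgeR, adjusted over all features after Benjamini and Hochberg, 1221 features (27.7%) were higher in EVs and 1138 (25.8%) were lower, at an adjusted p under 0.05. The EV and cell libraries did not overlap for 2889 features (65.5%). The median log2 fold, EVs over cells, was 0.07 over all features, so a fold near 0 means a feature that kept pace with the rest. Scaling by library totals in place of TMM factors moved the median up by 0.44, and with it 1817 features (41.2%) were higher and 689 (15.6%) lower.

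miRNAs took 32.5%, 32.5% and 33.6% of the counts of the EV libraries, against 37.5%, 39.8% and 35.3% of those of the cell libraries. snoRNAs took 0.440%, 0.445% and 0.498% in EVs, against 2.21%, 2.17% and 2.40% in cells. Mitochondrial tRNAs took 0.0118%, 0.0122% and 0.0114% in EVs, against 0.182%, 0.196% and 0.209% in cells. The group of Y, vault, 7SL and other small RNAs took 0.598%, 0.636% and 0.694% in EVs, against 0.230%, 0.216% and 0.243% in cells. Nuclear tRNAs averaged 3.50% ± 0.26 in EVs and 2.49% ± 0.13 in cells (SD, n = 3 each), cytoplasmic rRNA 7.43% ± 0.12 in EVs and 5.29% ± 0.64 in cells, and snRNAs 1.13% ± 0.06 in EVs and 0.604% ± 0.045 in cells. For each of these classes the libraries of the sides did not overlap. The two-sided exact permutation test of 3 against 3 libraries gave p = 0.1 for each, the smallest value it allows. With the genes around small RNAs left out of the total, the miRNA difference of -4.68 percentage points became -10.1.

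**Figure D1:**
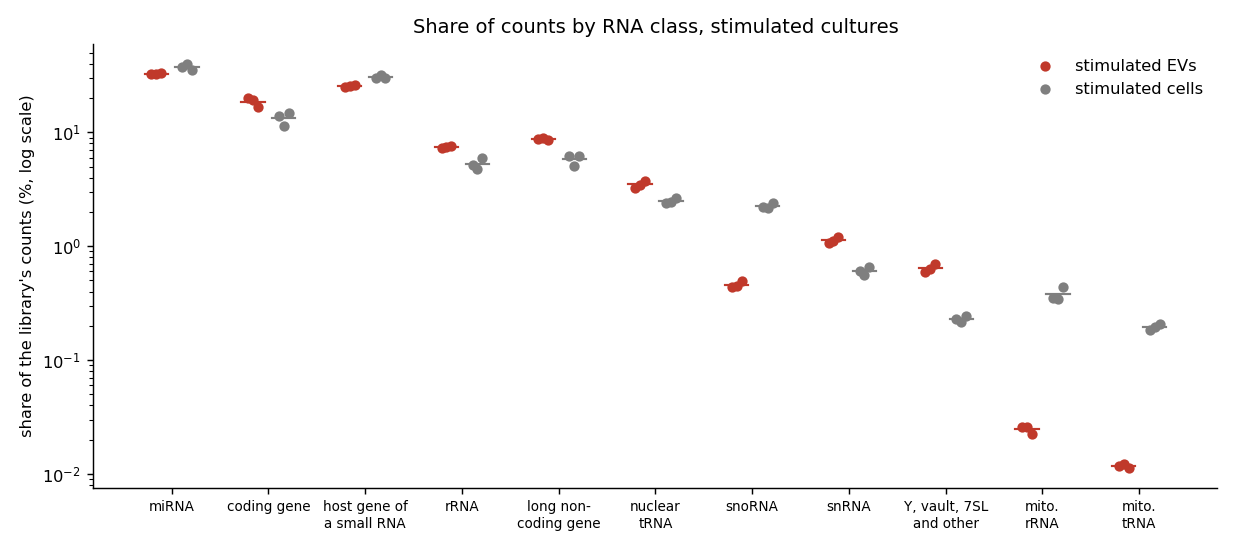
Share of each library's counts by RNA class (percent, log scale) in the 3 stimulated EV libraries and the 3 stimulated cell libraries; points are libraries and bars are means. Mitochondrial tRNAs stood near 0.012% in EVs and 0.18% to 0.21% in cells, and for each class drawn the points of the sides do not overlap.

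**Figure D2:**
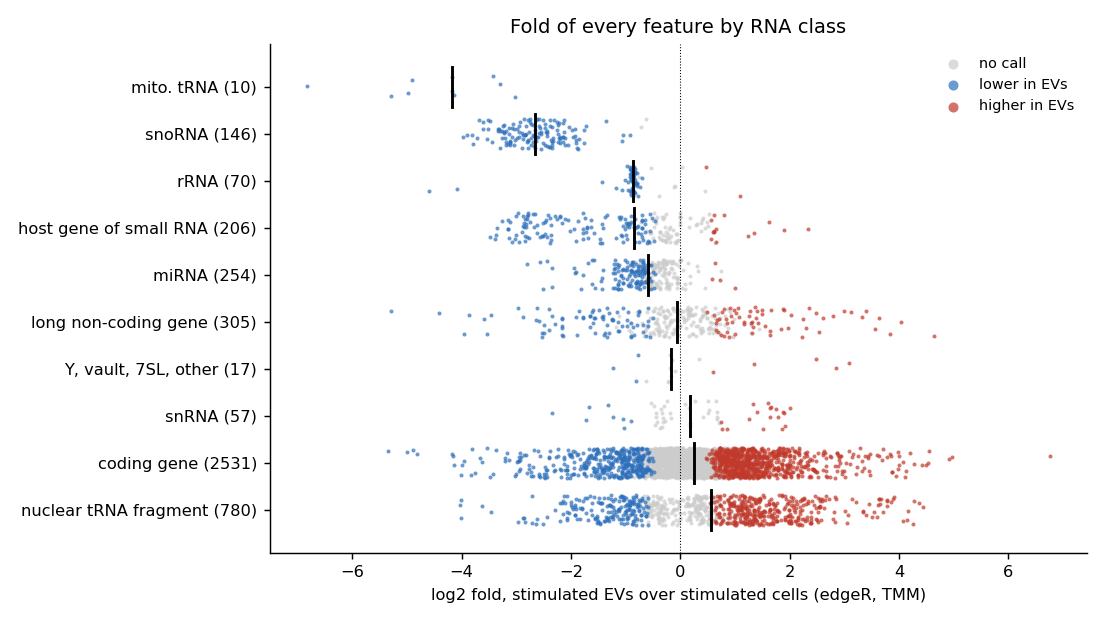
Log2 fold of every feature, stimulated EVs over stimulated cells (edgeR, TMM scaling), by RNA class with the number of features in brackets; black bars are class medians and colours mark calls at an adjusted p under 0.05. The medians run between -4.18 for mitochondrial tRNAs and 0.56 for nuclear tRNA fragments.

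Among 254 miRNA precursors, 4 were higher and 123 lower in stimulated EVs, with a median log2 fold of -0.59 beside 0.07 over all features. These counts depended on the scaling: by library totals 17 were higher and 52 lower, with a median of -0.15 beside 0.51 over all features. Without EV replicate 3, 2 were higher, and without cell replicate 2, 78 were lower. Levels ran in parallel: across the 254 precursors, log2 mean CPM in EVs and in cells had a Pearson r of 0.982, a description over features that share libraries and, in part, reads. Of the 10 most abundant miRNAs in EVs, 9 were among the 10 most abundant in cells.

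miR-150, a miRNA of naive lymphocytes that targets Myb, had the highest log2 fold of the 254. Mir150 had 2594, 2602 and 4126 CPM in stimulated EVs, against 1382, 1910 and 1393 CPM in stimulated cells. Every EV library stood above every cell library, with a log2 fold of 0.99 ± 0.22 (SE, edgeR adjusted p = 0.000471). Mir181a-1, 1 of the pair of genes for miR-181a, which tunes T cell receptor signalling, had 166.5, 144.1 and 208.0 CPM in EVs, against 97.2, 118.3 and 97.7 CPM in cells. Its log2 fold was 0.73 ± 0.21 (edgeR adjusted p = 0.00435). Its copy Mir181a-2, with the same mature sequence, passed at 0.58 (edgeR adjusted p = 0.0323), but not with RLE factors, DESeq2, a replicate block, or without EV replicate 3, cell replicate 1 or cell replicate 3. Mir6236, the fourth precursor called higher, had a log2 fold of 0.63 (edgeR adjusted p = 0.0148), a call lost without EV replicate 3; it was named after its value was seen. Of the 6 precursors of the miR-181 family, Mir181c fell with a log2 fold of -0.58 and Mir181d with -0.54, and neither was called by library totals.

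Of 12 miRNAs on the list of those induced by activation, 9 were lower in the vesicles than in the cells and 0 higher, with a median of -0.82. Of all 254 miRNAs 123 were lower, with a median of -0.59, and of all features 25.8%. The let-7 family also gave 9 lower of 12. By library totals 5 of the activation list were lower and 1 higher, beside 52 lower and 17 higher of the 254. Mir210, which cells make more of in low oxygen, had 160.7, 173.7 and 216.7 CPM in stimulated EVs, against 940.5, 1118 and 735.9 CPM in stimulated cells. The sides were far apart, with a log2 fold of -2.34 ± 0.24 (edgeR adjusted p = 5.17e-09). The cluster of miR-183, miR-182 and miR-96, which lies on chromosome 6 and is induced in activated lymphocytes, fell as a whole. Mir183 had a log2 fold of -1.92 ± 0.28, Mir182 of -1.61 ± 0.25 and Mir96 of -1.81 ± 0.27. Mir132, which responds to the transcription factor CREB, had 525.7, 527.3 and 655.2 CPM in EVs, against 1188, 1344 and 1166 CPM in cells, a log2 fold of -1.11 ± 0.21. Mir155, the product of the Bic transcript and needed for T helper responses, had 6909, 7596 and 8861 CPM in EVs, against 11440, 12720 and 11330 CPM in cells. Its log2 fold of -0.60 ± 0.17 (edgeR adjusted p = 0.00475) was -0.16 and not called by library totals, as Mir21a (-0.91, then -0.45) and Mir146 (-0.60, then -0.15) were not. Mir21a also lost its call without EV replicate 1 (-0.81) or cell replicate 2 (-0.62).

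The lowest of the abundant miRNAs by the naming rule were Mir5121 and Mir3535. Mir5121, on chromosome 7 from 45126918 to 45126991 (GRCm38), had 72.2, 68.7 and 67.9 CPM in stimulated EVs, against 467.1, 479.3 and 517.1 CPM in stimulated cells. Its log2 fold of -2.81 ± 0.24 (edgeR adjusted p = 1.91e-10) was the lowest of the 254 features listed as miRNAs. The mature sequence printed above holds UGAUGA, the letters searched further on as box C of snoRNAs. The median log2 fold was -2.66 for snoRNAs and -0.59 for miRNAs. Whether the reads of Mir5121 come from a snoRNA was not tested. Mir3535 had 31.5, 27.8 and 46.1 CPM in EVs, against 187.2, 203.9 and 179.2 CPM in cells, a log2 fold of -2.44 ± 0.21. Neither range comes near the other side's.

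Families differed less than the class extremes. In the let-7 family, miRNAs that repress Myc and Ras, 9 of 12 precursors were lower and 0 higher (median -0.67); by library totals 2 were lower, Mirlet7e (-1.58 by TMM) and Mir98 (-0.93). The clusters of miR-23, miR-27 and miR-24 had 5 of 7 lower (median -1.14), with Mir27a at -1.24 and Mir24-2 at -1.14, and 4 lower by library totals. Mir24-1 and Mir3074-1, which overlap on opposite strands, have the same counts and enter both numbers as 2. Copies at several loci, such as Mir24-1 with Mir24-2 or Mirlet7a-1 with Mirlet7a-2, had similar levels and may share reads. A family count may thus hold 1 RNA more than once. In the miR-17-92 cluster and its paralogs, which drive proliferation of lymphocytes, 4 of 15 were lower and 0 higher (median -0.25), but by library totals 0 were lower and 2 higher (median 0.21). Mir19a fell with a log2 fold of -0.63, and Mir19b-1 (-0.49) and Mir19b-2 (-0.49) passed by a margin so narrow that leaving out any 1 of the 6 libraries ended both calls. Mir17 (-0.18), Mir20a (-0.22) and Mir92-1 (-0.17) did not pass, and their sign turns by library totals. The miR-15 and miR-16 family had 3 of 5 lower, miR-29 and miR-30 had 3 of 10, and the naive and resting list 1 higher (Mir150) and 3 lower of 11, among them Mir29b-1 at -1.20; by library totals those 3 lists had 1, 0 and 0 lower, and 0, 3 and 4 higher. For the miR-17-92, miR-29 and miR-30, and naive lists the share lower was near the 25.8% of all features.

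The most abundant miRNA was Mir142, a miRNA of all blood cells, whose counts are the same as those of the opposite-strand Mir142b. It had 45540, 46790 and 49100 CPM in stimulated EVs, against 74310, 90670 and 66150 CPM in stimulated cells, a log2 fold of -0.71 ± 0.26 (edgeR adjusted p = 0.0243) that did not pass by library totals or without EV replicate 1, EV replicate 2 or cell replicate 2. The letters GGAG, known from human T cells as a motif of miRNAs sorted into exosomes, were looked for in the mature sequences on the strand of the miRNA. They occurred for 29 of 184 precursors matched in RefSeq (15.8%), beside 22.3% of 1058 RefSeq precursors. Of the 29, 0 were higher and 10 lower, with a median log2 fold of -0.50; of the 155 without the motif, 4 were higher and 88 lower, with a median of -0.64. No test was made of this.

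**Figure D3:**
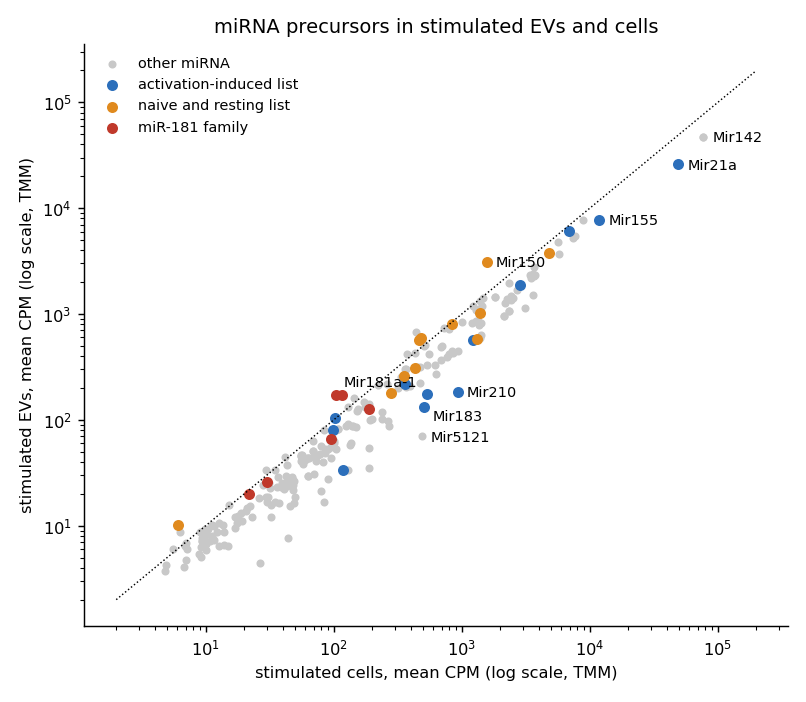
Mean level of each of 254 miRNA precursors in stimulated EVs (vertical, CPM, log scale) against stimulated cells (horizontal, CPM, log scale); the dotted line marks equal levels and colours mark 3 lists. Across lists most points lie close to the line, with Mir150 and Mir181a-1 above it, and Mir210, Mir183 and Mir5121 well below.

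Nuclear tRNA fragments are named in the tables by locus and by a kind that the authors defined, such as 5FR_1 or 3FR_2; what the numbers and letters after the end mean is not given in the sources used here. Cells cut tRNAs into such fragments under stress and during growth, and loci with 1 anticodon can share reads, so loci were summed to 170 pairs of anticodon and kind. Of these, 88 (51.8%) were higher in stimulated EVs and 43 (25.3%) lower, with a median log2 fold of 0.62, and the sides did not overlap for 141 (82.9%). By library totals 102 (60%) were higher and 33 (19.4%) lower. Direction differed by kind. Of the 5FR_1 fragments 29 of 31 sums were higher and 0 lower, with a median of 2.16. The 3FR_2 fragments gave 5 higher and 10 lower of 22, the 5_half_up fragments 6 higher and 7 lower of 17, and the 3FR_1 fragments 15 higher and 12 lower of 35; by library totals these were 9 and 10, 8 and 2, and 18 and 10. Counted by locus in place of anticodon, the 3FR_2 fragments gave 31 higher and 10 lower of 58 (median 0.90), since an anticodon with many loci then counts many times. As a share of all counts, 5FR_1 fragments took 1.39%, 1.63% and 1.72% in EVs, against 0.334%, 0.350% and 0.373% in cells. The 3FR_2 fragments took 0.366%, 0.375% and 0.426% in EVs, against 0.954%, 0.978% and 1.06% in cells. Both comparisons were free of overlap, and each had the smallest exact permutation p of 0.1. The 5_half_up shares overlapped, 0.253%, 0.254% and 0.311% in EVs and 0.198%, 0.291% and 0.263% in cells (exact permutation p = 0.6).

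**Figure D4:**
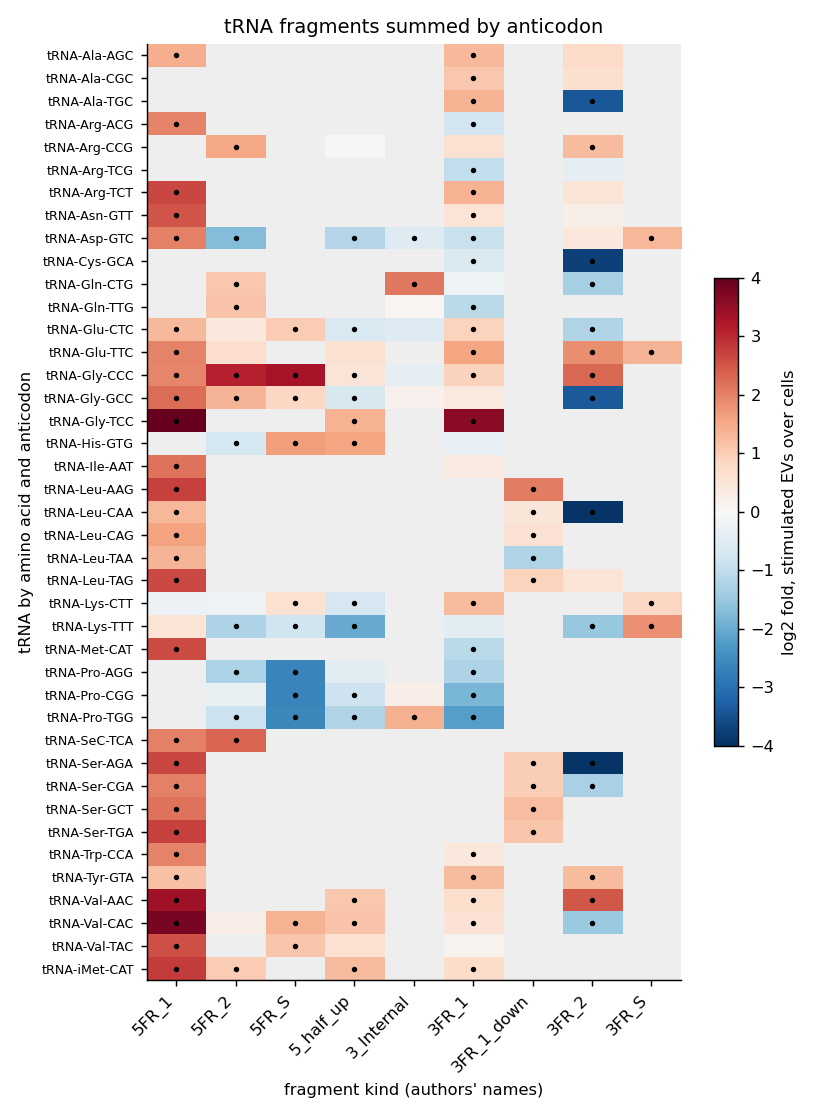
Log2 fold, stimulated EVs over stimulated cells, of tRNA fragments summed by anticodon (down the page) and by fragment kind (across); red is higher in EVs, blue lower, grey not listed, and dots mark an adjusted p under 0.05. The 5FR_1 column is red almost throughout, and single dark blue cells stand in the 3FR_2 column.

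The widest rise among the sums was that of glycine tRNA with anticodon TCC; rises and falls are on the log2 scale. Its 5FR_1 fragments, summed over 8 loci, had 809.7, 1103 and 1356 CPM in stimulated EVs, against 50.8, 64.6 and 53.6 CPM in stimulated cells. That is a log2 fold of 4.27 ± 0.24 (edgeR adjusted p = 2.74e-13). Its 3FR_1 fragments rose too, with 643.9, 708.3 and 914.0 CPM in EVs, against 72.3, 52.8 and 59.0 CPM in cells, a log2 fold of 3.62 ± 0.21. Among sums with a mean of at least 100 CPM, the 5FR_1 fragments of valine tRNAs came next, with log2 folds of 3.79 ± 0.44 for Val-CAC and 3.39 ± 0.40 for Val-AAC. In EVs the 5FR_1 fragments of Gly-GCC had the highest level of all sums, with 2057, 2554 and 3320 CPM in EVs, against 539.1, 633.9 and 530.4 CPM in cells (log2 fold 2.22 ± 0.33). For this tRNA the 5_half_up fragments gave -0.66 ± 0.27 (edgeR adjusted p = 0.0479), a call that was lost by library totals and without any of EV replicates 1 and 2 and cell replicates 2 and 3.

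Fragments of other tRNAs were depleted, in some cases beside raised fragments of the same tRNA. The 3FR_2 fragment of Leu-CAA had 21.0, 21.8 and 41.5 CPM in stimulated EVs, against 417.6, 424.0 and 419.6 CPM in stimulated cells, a log2 fold of -3.92 ± 0.26, while the 5FR_1 fragments of Leu-CAA rose by 1.32. The 3FR_2 fragment of Ser-AGA had 16.4, 22.1 and 22.7 CPM in EVs, against 280.1, 308.0 and 328.6 CPM in cells (-3.91 ± 0.24), while its 5FR_1 fragments rose by 2.66. Each of these 3FR_2 sums rests on 1 locus. The most abundant of the depleted kind were the 3FR_2 fragments of Ala-TGC, with 241.9, 266.1 and 489.3 CPM in EVs, against 2976, 4242 and 3234 CPM in cells (-3.39 ± 0.39), and of Cys-GCA, with 169.6, 171.1 and 212.9 CPM in EVs, against 2382, 2556 and 2399 CPM in cells (-3.73 ± 0.25). The 3FR_1 fragments of Ala-TGC rose by 1.40. Those of Cys-GCA fell, with a log2 fold of -0.57 that was not called by library totals. Not all 3FR_2 fragments fell: those of Val-AAC rose by 2.49, of Gly-CCC by 2.31 and of Glu-TTC by 1.85, while those of Val-CAC fell, with a log2 fold of -1.49.

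By amino acid, Cys, Pro and Thr tRNAs stood on the low side. For cysteine 2 of 2 sums were lower, with a median of -2.15. Of 14 proline sums 10 were lower and 1 higher, with a median of -1.21, such as 3FR_1 of Pro-TGG at -2.21 and 5FR_S of Pro-AGG at -2.63, and 3 of 3 threonine sums were lower. Of 18 glycine sums 13 were higher and 2 lower, of 15 serine sums 12 were higher and 2 lower, and of 4 initiator methionine sums 4 were higher. Lys-TTT was divided by kind: its 5_half_up fragments fell, with a log2 fold of -2.01 ± 0.23, its 3FR_S fragment rose by 1.81 ± 0.34, and its 5FR_1 fragments gave 0.54 and did not pass.

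Mitochondrial tRNAs had the lowest median of the classes, -4.18. All 10 listed mitochondrial tRNAs (of 22 on the list) were lower in stimulated EVs, with log2 folds between -6.84 and -3.04, as were the 9 listed mitochondrial rRNAs and messages (of 15), between -4.61 and -3.38, under both scalings. mt-Ti, the isoleucine tRNA, had 5.00, 3.48 and 5.81 CPM in EVs, against 455.3, 716.5 and 469.7 CPM in cells. Its log2 fold was -6.84 ± 0.30 (edgeR adjusted p = 2.68e-15). mt-Ts2, a serine tRNA, had 6.00, 3.48 and 6.17 CPM in EVs, against 189.0, 222.3 and 206.2 CPM in cells (-5.29 ± 0.28). The RNA of the large mitochondrial ribosomal subunit, mt-Rnr2, had 85.7, 88.5 and 106.4 CPM in EVs, against 2151, 2290 and 2393 CPM in cells (-4.61 ± 0.18), and that of the small subunit, mt-Rnr1, gave -4.09 ± 0.19. Fragments of messages for respiratory chain subunits behaved alike, with mt-Nd5 at -4.16 and mt-Cytb at -3.38. Both tRNAs that led this group are printed from GENCODE transcripts of GRCm38. mt-Ti lies at chrM:3706-3774 and mt-Ts2 at chrM:11613-11671, both on the plus strand.
mt-Ti: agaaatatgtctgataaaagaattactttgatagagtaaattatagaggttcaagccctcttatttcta
mt-Ts2: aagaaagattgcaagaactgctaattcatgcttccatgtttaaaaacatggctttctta

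snoRNAs were lower in stimulated EVs almost without exception, 144 of 146, with 0 higher and a median of -2.66. The sides did not overlap for 146 of 146. Over all features 25.8% were lower and 65.5% did not overlap. By library totals 140 snoRNAs were lower, beside 15.6% of all features. Of those with box C/D names 64 of 64 were lower, of those with box H/ACA names 17 of 18. Gm23212, which lies within Gas5 on chromosome 1, had 22.5, 30.5 and 34.5 CPM in EVs, against 431.5, 495.7 and 444.9 CPM in cells. Its log2 fold was -3.98 ± 0.22 (edgeR adjusted p = 2.59e-13). Gm23201, which lies within Zfas1 on chromosome 2, had 13, 15.4 and 19.6 CPM in EVs, against 221.4, 239.7 and 202.5 CPM in cells (-3.80 ± 0.28). The genes that carry snoRNAs in their introns hold the same reads: 21 of 21 lines, of 18 genes, were lower, among them Snhg1 (-3.01), Zfas1 (-3.26) and Hspa8 (-2.83). Dancr stands on 4 of these lines with nearly the same counts. Both named snoRNAs hold the letters of a box C (TGATGA, in the first part) and of a box D (CTGA, in the last part), searched on the RNA's own strand and shown in capitals. Gm23212 lies at chr1:161036682-161036741 and Gm23201 at chr2:167064998-167065086, both on the plus strand (GENCODE, GRCm38).
Gm23212: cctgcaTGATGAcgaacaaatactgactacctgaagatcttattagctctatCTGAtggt
Gm23201: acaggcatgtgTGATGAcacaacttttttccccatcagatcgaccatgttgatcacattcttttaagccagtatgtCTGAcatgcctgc
Both boxes were found in 41 of 58 Snord-named snoRNAs (70.7%), 0 of 18 Snora-named and 32 of 60 Gm-named ones, beside 21.5% of 1483 GENCODE snoRNA transcripts. The medians were -2.78 for Snord names, -2.41 for Snora names and -2.66 for Gm names.

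snRNAs divided by type. Of 57 features 18 were higher and 8 lower in stimulated EVs. The share higher was near the 27.7% of all features, and the share lower was below their 25.8%. By library totals 32 were higher and 5 lower, beside 41.2% and 15.6% of all features. The lower ones were 13 with RLE factors, 13 with the 6 libraries alone and 14 with DESeq2. Copies were grouped by at least 90% identity to a named snRNA, and copies share reads, so a group may hold 1 RNA several times. All 13 features like U2, which recognises the branch point of introns, were higher, with log2 folds between 0.85 and 2.01 and 13 of 13 also by library totals. Rnu2-10 had 243.7, 253.5 and 312.5 CPM in EVs, against 69.1, 91.0 and 76.3 CPM in cells (log2 fold 1.78 ± 0.26, edgeR adjusted p = 3.01e-06). Its copies Gm26316 (2.01 ± 0.27) and Gm25202 (1.92 ± 0.26) stood highest. The 26 features like U1, which binds the start of introns, gave 2 higher and 2 lower with a median of -0.32, and 9 higher by library totals. Rnu1a1 had 124.7, 158.4 and 163.7 CPM in EVs, against 185.8, 167.1 and 187.7 CPM in cells, -0.28 by TMM and 0.16 by library totals, neither past the test. U5 gave 2 higher of 7, and 7 of 7 by library totals. Rnu7, which processes histone messages, fell, with a log2 fold of -1.73 ± 0.23. The 7 features that entered no group gave 5 lower and 0 higher. Gm24265 (-1.02) and Gm24407 (-0.90), neighbours on chromosome 5, also fell; their folds stayed negative without any 1 library (-1.18 to -0.77 for Gm24265, -1.08 to -0.71 for Gm24407), but the calls were lost by library totals and without EV replicate 1, EV replicate 3 or cell replicate 2. A U2 that was called and a U1 that was not are printed from GENCODE (GRCm38, plus strand), Rnu2-10 from chr11:101658238-101658428 and Rnu1a1 from chr11:87422867-87423030.
Rnu2-10: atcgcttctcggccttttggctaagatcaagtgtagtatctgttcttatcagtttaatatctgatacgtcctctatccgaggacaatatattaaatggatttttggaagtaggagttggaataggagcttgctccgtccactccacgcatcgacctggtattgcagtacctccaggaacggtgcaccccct
Rnu1a1: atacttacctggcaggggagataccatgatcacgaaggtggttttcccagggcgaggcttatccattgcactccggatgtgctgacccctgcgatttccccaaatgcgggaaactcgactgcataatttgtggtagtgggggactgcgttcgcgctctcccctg

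Y RNAs, which bind the Ro protein, rose. Rny1 had 2593, 2900 and 3614 CPM in stimulated EVs, against 412.9, 467.9 and 384.6 CPM in stimulated cells. Its lowest EV library was above its highest cell library by a wide margin, with a log2 fold of 2.85 ± 0.21 (edgeR adjusted p = 2.62e-11). Rny3 had 131.2, 169.7 and 214.2 CPM in EVs, against 63.7, 69.6 and 69.6 CPM in cells (1.34 ± 0.22). Gm24372, listed as misc_RNA, had 211.7, 217.2 and 294.8 CPM in EVs, against 36.0, 25.9 and 23.0 CPM in cells (3.09 ± 0.24). Rny1 (chr6:47788069-47788180, minus strand) and Rny3 (chr6:47781624-47781725, plus strand) are 72.3% identical, and the capitals mark the longest stretch they share, of 12 bases (GENCODE, GRCm38).
Rny1: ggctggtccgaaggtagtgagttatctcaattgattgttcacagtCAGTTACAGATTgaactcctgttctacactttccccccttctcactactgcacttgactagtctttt
Rny3: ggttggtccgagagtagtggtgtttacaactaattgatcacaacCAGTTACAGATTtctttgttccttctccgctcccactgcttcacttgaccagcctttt
Rpph1, the RNA of RNase P, which trims the 5′ end of tRNAs, rose by 0.60 (edgeR adjusted p = 0.012) and by 0.51 to 0.72 without any 1 library, with the call lost without EV replicate 3 or cell replicate 2. The 7SK RNA Rn7sk, a regulator of transcription elongation which stands on 2 lines with the same counts, fell, with a log2 fold of -1.23. The 7SL RNAs of the signal recognition particle, Rn7s1 and Rn7s2, gave -0.77 ± 0.18 and -0.81 ± 0.18; Rn7s1 was not called by library totals. Vaultrc5, the vault RNA, gave -0.63 and did not pass (edgeR adjusted p = 0.089).

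Cytoplasmic rRNA was divided between its parts. Rn18s-rs5, a repeat with 18S sequence, had 37970, 41550 and 45720 CPM in stimulated EVs, against 31150, 29660 and 30010 CPM in stimulated cells, a log2 fold of 0.46 ± 0.17 (edgeR adjusted p = 0.0213) that was not called with RLE factors, DESeq2, a replicate block, or without EV replicate 3 or cell replicate 2. Of 56 copies of 5S rRNA 51 were lower and 1 higher, with a median of -0.87. By library totals 1 was lower and 2 higher, with a median of -0.43. Such copies may share reads, so they may hold 1 RNA many times. Over all 70 rRNA features the 61 lower calls became 21 without EV replicate 1, 26 without EV replicate 2, 36 without cell replicate 2 and 26 without cell replicate 3.

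**Figure D5:**
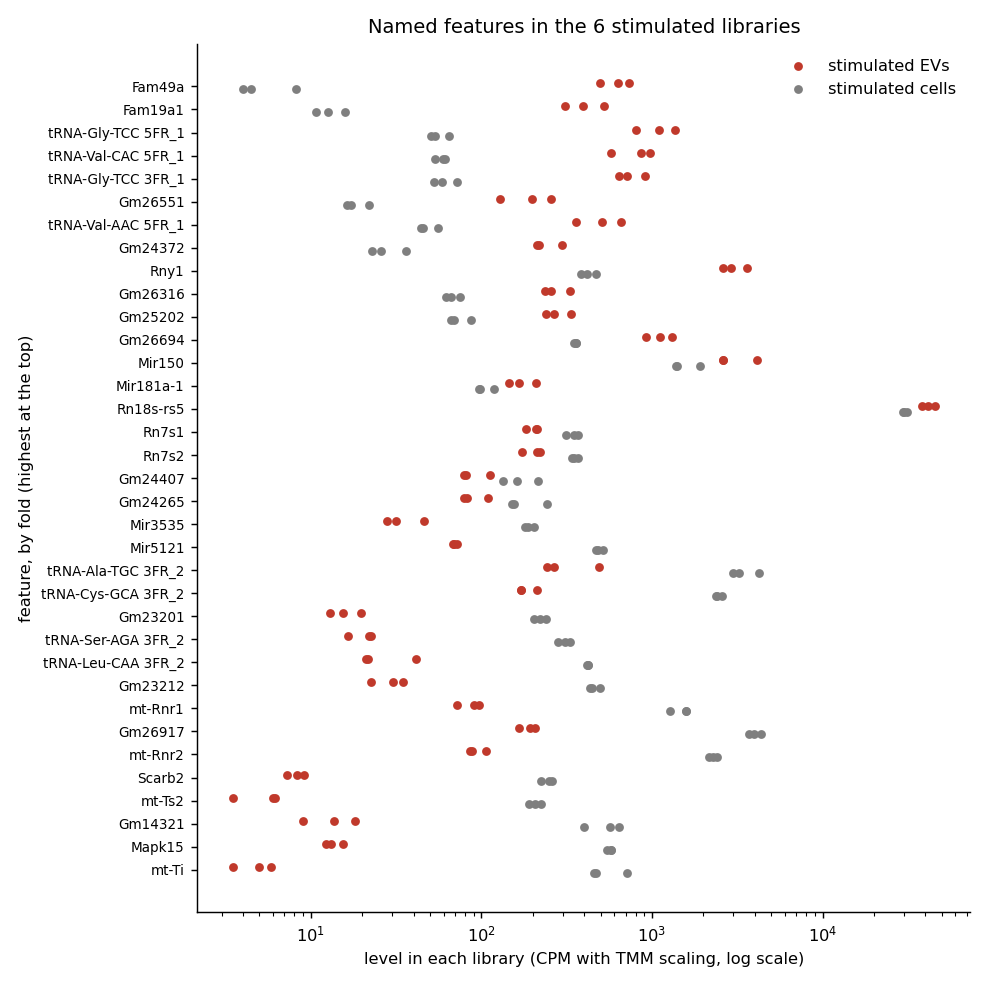
Level of each feature named by the rule (highest and lowest folds of each class among called features with at least 100 CPM and no overlap) in the 3 stimulated EV libraries and the 3 stimulated cell libraries (CPM, TMM scaling, log scale), ordered by fold. The lack of overlap was a condition of the rule; mt-Ti at the bottom stands near 5 CPM in EVs and above 455 CPM in cells.

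The counts of long genes measure short reads that map inside them and are not message levels. Of 2531 protein-coding genes without a listed small RNA 753 were higher and 383 lower in stimulated EVs, with a median log2 fold of 0.26. The share higher was near the 27.7% of all features, and the share lower was below their 25.8%. By library totals 1152 were higher and 210 lower, beside 41.2% and 15.6% of all features. In 485 of the 753 EV replicate 3 was the lowest EV library. Fam49a, which codes for a protein that binds the GTPase Rac, had 634.2, 731.4 and 497.7 CPM in EVs, against 8.19, 3.98 and 4.44 CPM in cells. Its log2 fold of 6.77 ± 0.46 (edgeR adjusted p = 4.43e-12) was the highest of all 4408 features. Fam19a1, of a family of secreted chemokine-like proteins, had 392.2, 521.2 and 307.5 CPM in EVs, against 10.7, 15.9 and 12.6 CPM in cells (4.97 ± 0.47). On the other side, Mapk15, an atypical MAP kinase, had 15.5, 13.1 and 12.3 CPM in EVs, against 571.0, 572.8 and 541.6 CPM in cells (-5.35 ± 0.30). Scarb2, a lysosomal membrane protein, had 8.25, 7.25 and 9.08 CPM in EVs, against 259.5, 249.6 and 223.6 CPM in cells (-4.89 ± 0.29).

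Of 305 long non-coding genes without a listed small RNA 63 were higher and 80 lower, and by library totals 105 higher and 52 lower. The share higher was below the 27.7% of all features, and the share lower was near their 25.8%. By library totals the shares of all features were 41.2% and 15.6%. Gm26551 (chromosome 11, 51949882 to 52269514, minus strand) had 197.2, 254.9 and 129.2 CPM in stimulated EVs, against 17.1, 21.9 and 16.3 CPM in stimulated cells (log2 fold 3.40 ± 0.32). It overlaps Tcf7, which codes for the regulator TCF-1 of naive and memory T cells, on the same strand, so reads may be shared. Tcf7 itself had 164.0, 225.3 and 107.4 CPM in EVs, against 6.05, 6.46 and 8.51 CPM in cells (4.55 ± 0.39). Of 26 T cell genes on a list 10 were listed in the tables, of which Tcf7, Foxo3 and Cd44 were higher and 0 lower, a share near the 27.7% of all features called higher; by library totals 5 were higher. Foxo3 had 229.0, 300.5 and 57.0 CPM in EVs, against 5.70, 4.97 and 8.51 CPM in cells (4.91 ± 0.46), with EV replicate 3 far below the other EV libraries. Cd44 gave 0.58 and lost its call without any 1 of the 6 libraries and with RLE factors or DESeq2. Of 17 genes of vesicle and RNA-binding proteins only Ago2 was listed, and the call on its 0.57 was lost with RLE factors, DESeq2, or without EV replicate 2 or cell replicate 3.

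Gm26694 (chromosome 17, 25794894 to 25964784), which holds a RefSeq tRNA gene, n-TGccc7, had 921.9, 1109 and 1313 CPM in stimulated EVs, against 346.7, 358.5 and 358.7 CPM in stimulated cells (log2 fold 1.65 ± 0.21). Gm14321 had 13.8, 8.99 and 18.2 CPM in EVs, against 567.8, 401.2 and 640.4 CPM in cells (-5.30 ± 0.27), and Gm26917, from 39843013 on chromosome 17, gave -4.41 ± 0.20. Gm42418 and AY036118, next to it on chromosome 17, ran in parallel with Rn18s-rs5 over the 24 libraries (Pearson r of log2 counts 0.999 and 0.996, a description) and gave 0.49 and 0.67. The 206 long genes that hold a listed small RNA, such as Mir142hg, Vmp1 (which holds Mir21a) and Gm20388, had 129 lower and 14 higher and repeat the small RNAs' counts.

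The same comparison in the DMSO cultures used other libraries of cells under stimulation. There 1630 features (37%) were higher in EVs and 1253 (28.4%) lower. Of the 1221 higher features of the stimulated cultures 881 (72.2%) were also called higher in DMSO cultures, which is 54.0% of the calls there, and 12 were called lower. Of the 1138 lower features 881 (77.4%) were also lower there, 70.3% of the calls there, and 53 were higher. Of the tRNA sums 58 of the 88 higher and 42 of the 43 lower were called the same way, and 0 the opposite way; the calls there were 61 higher (35.9%) and 53 lower (31.2%). The difference of the folds, stimulated minus DMSO, was positive for 21 sums (12.4%). By class, 141 of the 144 lower snoRNAs, all 10 mitochondrial tRNAs and 122 of the 123 lower miRNAs were also lower in DMSO cultures. So were 59 of the 61 lower rRNA features, most of them 5S copies, and 550 of the 753 higher coding genes were also higher. Over whole classes, 143 of 146 snoRNAs, 232 of 254 miRNAs and 62 of 70 rRNA features were lower in DMSO EVs. The overlap in these classes was thus near the share of the class. The miRNA median there was -1.15, beside -0.59 in stimulated cultures. Of all 2531 coding genes 1218 were higher in DMSO EVs.

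The difference between the log2 folds of stimulated and DMSO cultures, tested as a contrast of contrasts in edgeR, was positive for 246 features (5.58%) and negative for 572 (13%). U5 features differed for 7 of 7, with a median log2 fold of 0.68 in stimulated and -1.26 in DMSO cultures. Of the genes named above, Tcf7 gave a log2 fold of 4.55 in stimulated and -0.53 in DMSO cultures (difference edgeR adjusted p = 4.9e-06). Foxo3 gave 4.91 in stimulated and 1.77 in DMSO cultures (difference edgeR adjusted p = 0.00151), and Cd44 0.58 in stimulated and 2.82 in DMSO cultures (difference edgeR adjusted p = 4.72e-05). Fam49a was high in the EVs of both, with 6.77 in stimulated and 5.00 in DMSO cultures. The lines of 3 repeated names leave it possible that the 2 kinds of culture were counted in separate tables, which cannot be told apart from the culture in this difference.

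In resting cultures 834 features (18.9%) were higher in EVs and 679 (15.4%) lower, and the difference of the folds, stimulated minus resting, was positive for 668 (15.2%) and negative for 912 (20.7%). Mitochondrial tRNAs differed for 10 of 10: the median was -4.18 in stimulated and 0.48 in resting cultures, where 4 were higher and 0 lower. Of the 170 tRNA sums 61 (35.9%) were higher and 56 (32.9%) lower in resting EVs, and the difference was positive for 68 (40%) and negative for 27 (15.9%). For the 5FR_1 kind, 29 of 31 sums were higher in stimulated and 21 in resting cultures, and 20 differed. mt-Ti averaged 4.76 ± 1.18 CPM in stimulated EVs, against 547 ± 147 CPM in stimulated cells, and 64.8 ± 16.4 CPM in resting EVs, against 83.7 ± 19.4 CPM in resting cells (SD, n = 3 each). rRNA features differed for 64 of 70, with a median of -0.87 in stimulated and 0.57 in resting cultures. Of these 70, 56 were copies of 5S rRNA, which may share reads, and 52 of the copies differed, so these counts mostly describe 5S rRNA. snoRNAs were lower in the EVs of resting cultures too, 125 of 146, with a median of -1.75 beside -2.66 in stimulated cultures, and 68 differed. Activation-induced miRNAs gave 9 lower of 12 in stimulated cultures and 1 lower and 3 higher in resting cultures, and 9 differed. Of all 254 miRNAs 123 were lower in stimulated cultures, 17 were lower and 16 higher in resting cultures, and 64 differed. Mir210 gave -2.34 in stimulated and -0.79 in resting cultures. Rny1 gave 2.85 in stimulated and 3.40 in resting cultures, a difference that did not pass (edgeR adjusted p = 0.135). Stimulated and resting cultures also differ in days of culture and in IL2, which cannot be told apart from stimulation.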

How the data were processed

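Small RNA libraries of stimulated EVs and stimulated cells were compared, 3 of each, within a fit of all 24 libraries of 8 groups. Bowtie and the builds mm10 and GRCm38 are named in the submitters' processing notes. Annotation, counter and settings are not given in the sources used here. Deposited files hold whole-number counts per feature, 4441 lines each, of which 33 were repeated in full and dropped. Of 3628 names outside the tRNAs, 3511 had coordinates in GENCODE vM21. The authors' tables hold no feature under 4 counts in any library.

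The deposited counts were tested with edgeR 4.0.16 (glmQLFit, glmQLFTest, R 4.3.3) with TMM factors, which were 1.25 to 1.46 in stimulated EVs and 0.892 to 1.09 in stimulated cells. The filter (filterByExpr, minimum count 10) removed nothing. p-values were Benjamini-Hochberg adjusted over 4408 features, with a threshold of 0.05. A second table summed tRNA loci by anticodon and kind. Levels are CPM with TMM scaling, and standard errors are the fold divided by the root of the F statistic. Shares were compared by an exact permutation test of 20 arrangements. Alternatives were library totals, RLE factors, DESeq2 1.42.0, other filters, the 6 libraries alone, a replicate block, leaving out each library, and leaving out genes that hold a small RNA.

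Named features were, in each class, the 2 highest and the 2 lowest folds (4 each for tRNA sums) among called features without overlap and with a mean of at least 100 CPM, the 10 most abundant miRNAs and features, and members of lists. The members and lists were chosen with earlier results of these data known. Fragments and features named as examples within a class were picked after their values were seen. Replicates of a group differed by more than sampling noise (chi-square per degree of freedom 5.25 to 17). For 3 names (Dancr, Pcdha11 and Pde2a) the lines combine every value pattern of the 12 resting and stimulated libraries with every pattern of the 12 DMSO and GW4869 libraries, as a join of 2 tables would. The steps were tested on simulated data.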

Additional observations from a re-analysis of the deposited data

Results flagged for a closer look

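For the features below, the log2 fold of EVs over cells differed between stimulated and other cultures by edgeR's test of the difference itself, with adjusted p under 0.05 over all features, or over the 170 sums for tRNA fragments. Of the features with the highest or lowest folds of their class, Gm23201, Gm24265, Gm24407 and Gm26694 passed neither test. No value here carries an explanation, and stimulated and resting cultures also differ in days and IL2.

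For mitochondrial RNAs the difference, stimulated minus resting, was -6.47 for mt-Ti (stimulated -6.84, resting -0.36), -5.28 for mt-Ts2, -4.2 for mt-Rnr1 and -3.49 for mt-Rnr2. Against DMSO cultures mt-Rnr1 differed by -0.72, which was not called with RLE factors or a replicate block.

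Among miRNAs the difference from resting cultures was 0.9 for Mir150, not called under a replicate block, 1.07 for Mir181a-1 and -0.9 for Mir3535, not called by library totals. Mir5121 differed from DMSO cultures by -1.07.

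The snoRNA Gm23212 differed from resting cultures by -1.54. The U2 copies Gm26316 and Gm25202 differed from resting cultures by 1.41 and 1.65, and Gm25202 from DMSO cultures by 1.12. Rn18s-rs5 differed from DMSO cultures by -0.99 and from resting cultures by -1.64. The 7SL RNAs Rn7s1 and Rn7s2 changed side, with differences from resting cultures of -2.48 and -2.49. Gm24372 differed from resting cultures by -1.1, not called by library totals or under a replicate block, and Rny1 from DMSO cultures by 0.82, not called under a replicate block.

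Of the long genes, Fam49a differed from resting cultures by 6.26 and from DMSO cultures by 1.77, the second not called by library totals. Fam19a1 differed from resting cultures by 4.84. Gm26551 differed from DMSO cultures by 2.3 and from resting cultures by 2.85. On the low side the difference from resting cultures was -3.81 for Gm14321, -3.35 for Gm26917, -2.47 for Mapk15 and -1.99 for Scarb2, and that from DMSO cultures was -1.41 for Gm26917 and -1.8 for Scarb2.

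Of the tRNA sums, the 5FR_1 fragments of Gly-TCC differed from DMSO cultures by 1.4 and from resting cultures by 1.23. Against resting cultures the 3FR_1 fragments of Gly-TCC differed by 2.38, and the 5FR_1 fragments of Val-CAC and of Val-AAC each by 1.44, both not called with RLE factors. The 3FR_2 fragments differed from resting cultures by -2.21 for Leu-CAA, -1.99 for Ser-AGA, -2.55 for Cys-GCA and -2.1 for Ala-TGC.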

How the results depend on the processing

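Of the 125 named or listed features, 96 kept direction and call under library totals, 22 lost the call, 2 gained one and 5 changed sign: Mir92-1 (0.28), Mir17 (0.27), Mir20a (0.22), Mir17hg (0.11) and Rnu1a1 (0.16). Library totals gave 689 lower features, 17 higher and 52 lower miRNAs, 32 higher and 5 lower snRNAs, 3 lower rRNA features, 1152 higher and 210 lower coding genes, 105 higher and 52 lower long non-coding genes, 105 lower tRNA loci, 15 lower 5_half_up loci, and 107 higher and 37 lower 3FR_1 loci. Lower snRNAs were 13 with RLE factors, 13 with the 6 libraries alone and 14 with DESeq2, and higher rRNA features were 1 with RLE factors, DESeq2 and a replicate block. Differences from DMSO cultures changed sign for Gm23212 (-0.04, library totals) and, with RLE factors, for Rn7s2 (0.04), Rn7s1 (0.07) and Ser-AGA 3FR_2 (0.01). With genes that hold a small RNA out of the total, share differences in percentage points were -10.06 for miRNAs, -0.2666 for mitochondrial tRNAs, -2.643 for snoRNAs, 0.6501 for snRNAs, -0.5105 for mitochondrial rRNA, 0.5328 for Y and other small RNAs, 1.611 for 5FR_1, -0.01399 for 5FR_2, 0.04737 for 5FR_S and -0.915 for 3FR_2. Leaving out 1 library gave 2 to 4 higher and 78 to 128 lower miRNAs, 5 to 8 lower snRNAs, 1 to 2 higher and 21 to 61 lower rRNA features, 24 to 51 lower 5_half_up loci, -0.37 to 0.01 for Mir92-1 (0.01 without cell replicate 2), and share differences of -0.004927 to 0.009933 for 5FR_2 and -0.004475 to 0.04214 for 5_half_up. Beyond the settings' own construction, the cause was not tested.

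Whether same-numbered EV and cell libraries came from the same culture is not in the labels. Their deviations correlated at 0.152, -0.099 and -0.085, and EV replicate 3 correlated best with cell replicate 2 (0.21). With 3 libraries a side such deviations are not independent, so these values cannot decide whether the libraries were paired. With the replicate block the counts were 1217 (features, higher in stimulated EVs) and 1110 (features, lower in stimulated EVs), and with DESeq2 1071 and 1264. With 3 libraries a side, an exact test of a share cannot go below 0.1, and features under 4 counts in a library were not seen.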
